A study of Homo sapiens with 24 samples.

Results

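The expression of 9 genes of the p53 and RB pathways and of the CDKN2A locus was examined in 3 human cancer cell lines, out of 51715 genes counted in each library. The genes were MDM2, CDKN1A, CDKN2A, CDKN2B, MTAP, RB1, CDK4, CDK6 and CCND1, chosen by name and matched by symbol to 1 Ensembl gene each, and all 9 passed the filter on low counts. The lines were A-431, from an epidermoid carcinoma, U-2 OS, from an osteosarcoma, and U-251MG, from a glioblastoma. Poly(A) RNA was sequenced as total RNA and as cytoplasmic RNA, with 4 libraries for each of the 6 combinations of line and fraction. All cells were untreated and were grown in log phase. The design text calls the replicates biological, but the labels tie no library to a culture, so the p-values measure the spread between these libraries.

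U-2 OS is known as a line with wild-type p53 and RB in which CDKN2A is silenced by promoter methylation. A-431 and U-251MG carry mutant p53, and U-251MG is known to have lost CDKN2A by homozygous deletion. The wild-type p53 stood for a single line, and the lines differ in tumour type as well, so genotype and cell line cannot be told apart in any comparison here.

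The p53 protein is a transcription factor that is held low by MDM2, the ubiquitin ligase that p53 itself switches on. CDKN1A, which encodes p21, is the p53 target that stops cyclin-dependent kinases and with them the cell cycle. RB, the product of RB1, holds back the E2F factors until cyclin D1 (CCND1) with CDK4 or CDK6 phosphorylates it. The CDKN2A locus encodes p16INK4a, an inhibitor of CDK4 and CDK6, and p14ARF, an inhibitor of MDM2, from separate first exons, and CDKN2B beside it encodes p15INK4b, a further inhibitor of these kinases. MTAP, the next gene on the other side, encodes an enzyme of methionine salvage that is often lost together with CDKN2A in tumours.

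On GRCh37, MDM2 (ENSG00000135679) lay on the forward strand at chr12:69201957-69239324 and CDKN1A (ENSG00000124762) on the forward strand at chr6:36644237-36655114. The 3 genes of the 9p21 locus were MTAP (ENSG00000099810, forward strand, chr9:21802635-21937650), CDKN2A (ENSG00000147889, reverse strand, chr9:21967751-21995300) and CDKN2B (ENSG00000147883, reverse strand, chr9:22002902-22009304). RB1 (ENSG00000139687) lay on the forward strand at chr13:48877880-49173572, and CCND1 (ENSG00000110092) on the forward strand at chr11:69455924-69469242. CDK4 (ENSG00000135446) was on the reverse strand at chr12:58141510-58149796 and CDK6 (ENSG00000105810) on the reverse strand at chr7:92234235-92465887.

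MDM2 has an inner start from which p53 is known to drive it, and the stretch before that start is shown because MDM2 is a direct target of p53. The stretch was taken from RefSeq (GRCh38.p14) and found once in GRCh37, at chr12:69202688-69202775 on the forward strand, from 109 to 22 bases before the start and outside the annotated exons. Capitals mark its 2 matches to the p53 response element, searched without a spacer as a motif of 20 bases with at most 3 mismatches, which began 94 and 56 bases before the start and had 2 and 3 mismatches.
MDM2, inner start: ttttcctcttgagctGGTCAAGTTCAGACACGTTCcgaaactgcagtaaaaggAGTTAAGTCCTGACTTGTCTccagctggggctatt
Such a match was found in the 250 bases before a start in 5.38% of the 27305 genes with a RefSeq window, and in 5 of 29 (17.2%) of a list of p53 target genes. The CDKN1A window held none within 250 bases. Of the 8 members with a window, 3 (37.5%) held a match, MDM2 and also CDKN2B and RB1, each of the latter with 3 mismatches. The only RB1 window lay before an inner start, so its match does not describe the main RB1 promoter.

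The starts of CDKN2A and CDKN2B are shown because the results turn on these genes being read or not being read, and because CpG methylation of these starts is a known way of silencing them. The last 30 bases before each start are given on the reverse strand, from RefSeq (GRCh38.p14) with positions in GRCh37, and capitals mark CG pairs. The positions were chr9:21974857-21974886 for the inner start (p16INK4a), chr9:21995324-21995353 for the outer start (p14ARF) and chr9:22009305-22009334 for CDKN2B.
CDKN2A, inner start: cCGCGtgCGctCGgCGgctgCGgagagggg
CDKN2A, outer start: CGggggaagaggaaagaggaagaagCGctc
CDKN2B: aaaaCGgaattctttgcCGgctggctcccc
Over the 250 bases before each start there were 20, 24 and 18 CG pairs, respectively. Methylation itself was not measured.

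Between 19918911 and 32394170 reads were assigned to genes in each library. Levels are given as counts per 1000000 reads (CPM) of a scaled library size, the reads of genes past the filter times a TMM scaling factor. Levels of different genes are compared only per kilobase of the canonical transcript. In bulk RNA, the share of cells that read a gene and the amount of RNA per cell cannot be told apart. Of 10 squamous markers, 9 reached 1 CPM in A-431 total RNA (all but KRT14), 8 in U-2 OS (all but KRT6A and DSG3) and 2 in U-251MG. The 10 summed to 16390 to 18890 CPM in A-431, against 489 to 567 in U-2 OS. The bone and mesenchymal markers did not set U-2 OS apart, since they summed to 3027 to 3147 CPM there and to 3025 to 3522 CPM in U-251MG, with IBSP and BGLAP below 1 CPM in each line. The glial markers summed to 315 to 366 CPM in U-251MG and to 230.3 to 246 CPM in U-2 OS, and OLIG2, BCAN and NCAN were below 1 CPM in U-251MG. A U-2 OS cytoplasmic sample that held nuclear RNA was discarded in the study, and library 13 of that group, whose read totals had no entry among those of the study, was left out of the fits, which leaves n = 3 there. For MDM2, CDKN1A, MTAP and CDK6 it lay inside the range of the other U-2 OS cytoplasmic libraries. It lay below that range for RB1 (76.3 against 80.9 to 91.6 CPM), CDK4 (184.9 against 189.8 to 208 CPM) and CCND1 (346 against 347 to 358.5 CPM), and above it for CDKN2A and CDKN2B.

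MDM2 and CDKN1A, the p53 targets among the members, were both highest in U-2 OS, the line with wild-type p53. MDM2 stood at 209, 206, 205 and 207 CPM in the U-2 OS total libraries. It was read at 100.2, 99.2, 101 and 114 CPM in U-251MG and at 96.0, 94.2, 97.5 and 99.1 CPM in A-431. The U-2 OS libraries lay above all others and hardly differed among themselves. MDM2 was 2.14-fold lower in A-431 than in U-2 OS (log2 ratio −1.09 ± 0.065 SE, adjusted p = 1.43e-16, edgeR quasi-likelihood test) and 1.99-fold lower in U-251MG (−0.99 ± 0.065, adjusted p = 2.16e-15). The difference of −0.10 ± 0.065 between A-431 and U-251MG did not pass the test (adjusted p = 0.167).

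CDKN1A separated the lines further. Its total RNA level was 149.8, 154, 162 and 153 CPM in U-2 OS. The U-251MG libraries held 53.4, 49.5, 53.7 and 41.2 CPM, and those of A-431 held 41.3, 40.8, 39.3 and 41.7 CPM. CDKN1A was 3.79-fold lower in A-431 than in U-2 OS (log2 ratio −1.92 ± 0.075, adjusted p = 1.17e-21) and 3.13-fold lower in U-251MG (−1.65 ± 0.074, adjusted p = 9.28e-20). A-431 and U-251MG overlapped through U-251MG library 8, and the difference of −0.28 ± 0.075 between them did not pass the threshold of 0.001 (adjusted p = 0.00136). It was −0.36 and passed when library 8 was left out, and it also passed without U-251MG cytoplasmic library 18, at −0.28. By limma on RPKM the difference turned direction, at 0.19.

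The CDKN2A locus gave a different pattern in each line. CDKN2A was read in A-431 only at a low level, with 20, 20, 30 and 22 reads in the total libraries (0.801 to 0.953 CPM). No read of it was assigned in any of the 4 U-2 OS or the 4 U-251MG total libraries. Against the limit that a count of 0 allows, taken as 3 reads over the group, CDKN2A was at least 30.2-fold higher in A-431 than in U-2 OS and at least 29.2-fold higher than in U-251MG. Such bounds cover counting error in the group at 0 only, with the count of the higher group taken as exact. The intervals on counts given below cover counting error in both groups and no other spread. In the cytoplasm A-431 held 19, 26, 20 and 17 reads and U-251MG again none, which gives at least 24.6-fold. A single read was found in U-2 OS cytoplasmic library 16, and library 13, which was left out, held 2. The cytoplasmic ratio of A-431 to U-2 OS was thus 56.7, with a 95% counting interval from 9.90 to 2268. Transcripts for p16INK4a and p14ARF share 1 gene in the counts and were not separated.

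CDKN2B was read in U-2 OS, with 183, 225, 228 and 265 reads in total RNA (8.01, 9.55, 8.29 and 9.24 CPM). No read was assigned in the total RNA of A-431 or U-251MG. In U-2 OS it was therefore at least 305-fold higher than in A-431 and at least 290.0-fold higher than in U-251MG. U-2 OS cytoplasmic libraries 14, 15 and 16 held 207, 187 and 220 reads, against 1 read in A-431 (library 22) and 1 in U-251MG (library 18). The cytoplasmic ratios were 887 (158.7 to 35110) and 800 (143 to 31630), respectively. CDKN2A and CDKN2B thus showed opposite patterns in A-431 and U-2 OS, while U-251MG held at most 1 read of either in any library. Since each passed the filter only through the line in which it was read, neither is counted as support in the counts of members.

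MTAP, the nearest protein-coding gene beyond the end of CDKN2A, was read in every library, U-251MG included. Its total RNA level was 139.6, 132, 132 and 170.1 CPM in U-251MG. A-431 held 135, 133, 145 and 132 CPM, and U-2 OS 63.5, 65.3, 63.7 and 67.0 CPM. The 4 U-2 OS libraries were the lowest, and the other lines overlapped. MTAP was 2.10-fold higher in A-431 (log2 ratio 1.07 ± 0.076, adjusted p = 1.66e-14) and 2.21-fold higher in U-251MG (1.14 ± 0.076, adjusted p = 3.65e-15) than in U-2 OS. The difference between A-431 and U-251MG was −0.07 ± 0.074 (adjusted p = 0.389).

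**Figure D1:**
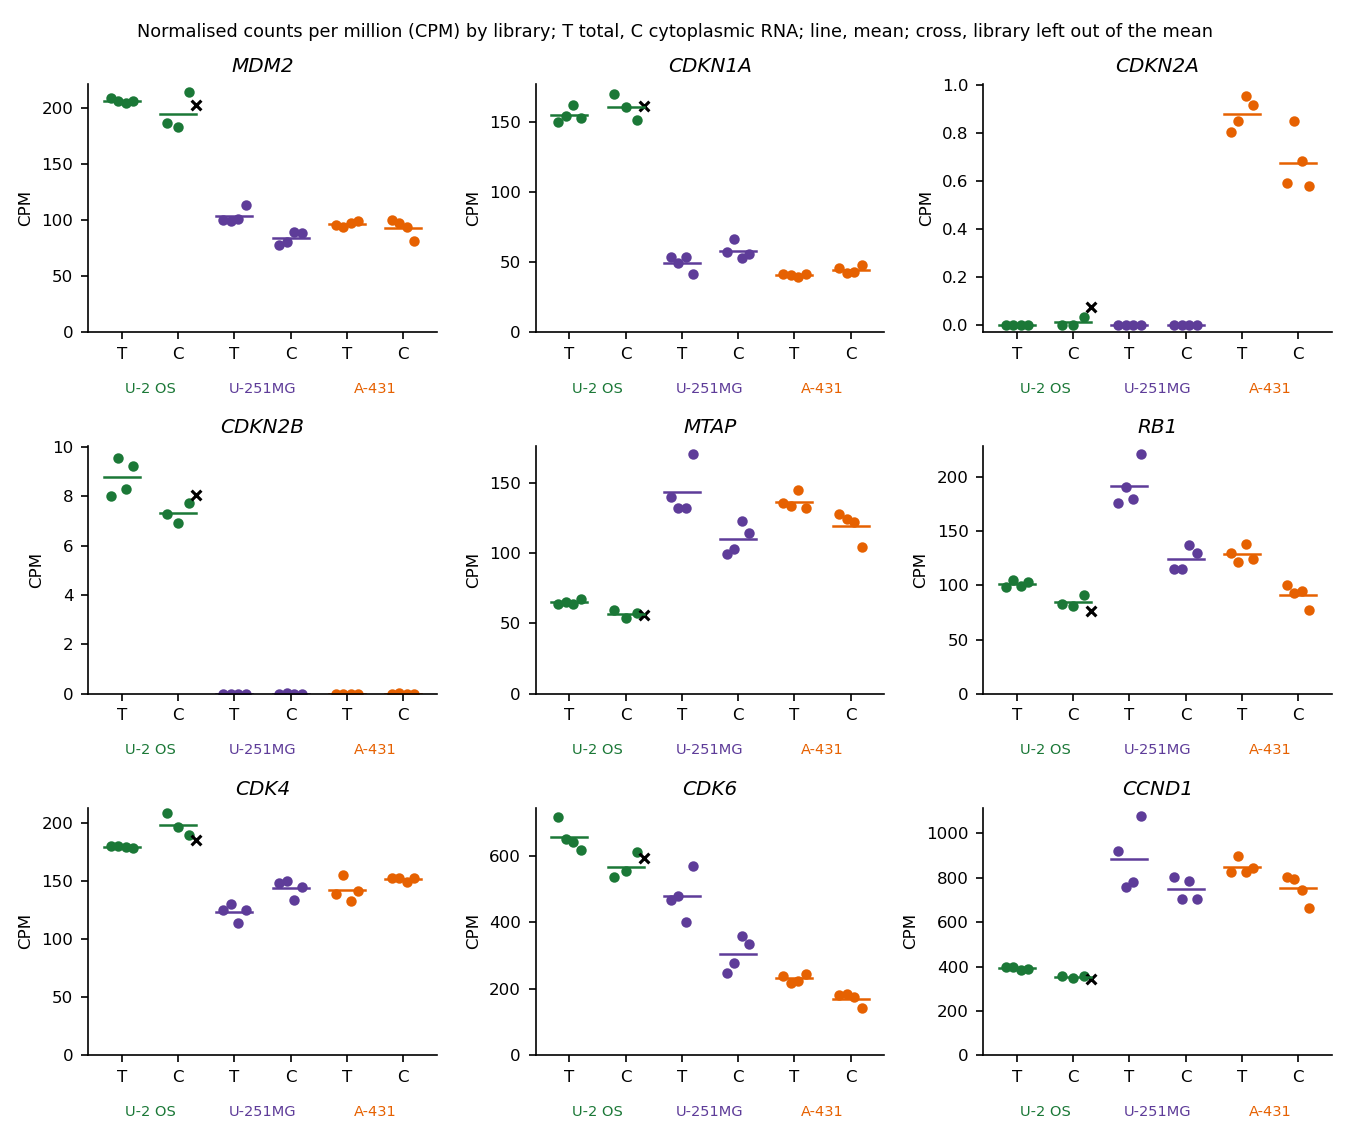
Level of each member in every library, in CPM, by cell line and fraction. Each point is 1 library and the bars are group means. MDM2 and CDKN1A stand highest in U-2 OS, CDKN2A is read in A-431 and CDKN2B in U-2 OS, and MTAP is read in all 3 lines.

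The wider neighbourhood on 9p21 was also described, over the 48 genes that lay within 1 Mb of CDKN2A. Of these, 27 had 3 or fewer reads in every group, among them 22 of the 28 interferon genes and pseudogenes. KLHL9, which encodes an adaptor of a ubiquitin ligase, lay beyond MTAP, at −659.9 kb from the start of CDKN2A, and was read at 84.0 ± 5.93 CPM (mean ± SD, n = 4, as for the levels below) in A-431, 91.0 ± 7.71 CPM in U-251MG and 88.0 ± 2.74 CPM in U-2 OS, differences that did not pass the test (adjusted p = 0.0905 to 0.471). On the opposite side, at 451.5 kb, DMRTA1 was read at 0.684 ± 0.177 CPM in A-431, 1.63 ± 0.417 CPM in U-251MG and 9.27 ± 0.625 CPM in U-2 OS, and each of these differences passed the test. CDKN2A and CDKN2B thus had neighbours on either side that were read in U-251MG. HACD4, an enzyme of fatty acid elongation at −963.7 kb, held 4312 reads in A-431 total RNA against 12 reads in U-251MG and 5 reads in U-2 OS. MIR31HG, the host transcript of a microRNA, held 314 reads in A-431, 12 reads in U-251MG and 0 reads in U-2 OS. CDKN2B-AS1, the antisense transcript that overlaps CDKN2B, held 8 reads in U-2 OS total RNA and 0 in A-431 and U-251MG. Counting ignored strand, so reads of CDKN2B and its antisense partner cannot be told apart where they overlap. The pseudogenes KHSRPP1, UBA52P6 and CLIC4P1 in this window can share reads with their parent genes and are uncertain.

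**Figure D2:**
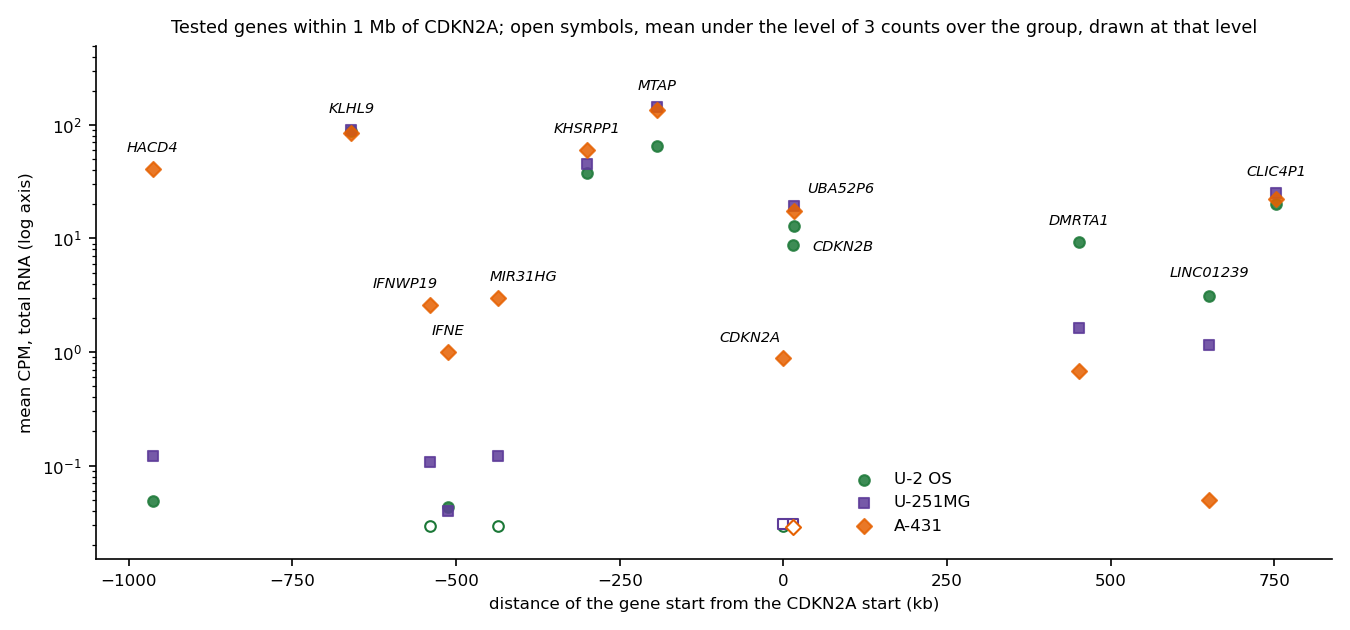
Total RNA level of the genes within 1 Mb of CDKN2A by distance from its start in kb, for each cell line, with CPM on a log axis. In U-251MG total RNA no read was assigned to CDKN2A or CDKN2B, while MTAP, at 143 CPM on average, is close to its A-431 level of 136.

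RB1, the target of the CDK4 and CDK6 kinases, was read in every line. Its total RNA level was 176, 190.5, 179.8 and 221 CPM in U-251MG. It was 129.8, 122, 138 and 125 CPM in A-431 and 99, 105, 99.7 and 104 CPM in U-2 OS. The 3 lines did not overlap. RB1 was 1.89-fold higher in U-251MG than in U-2 OS (log2 ratio 0.92 ± 0.076, adjusted p = 1.05e-12) and 1.49-fold lower in A-431 than in U-251MG (−0.58 ± 0.076, adjusted p = 3.27e-08). The 1.27-fold difference between A-431 and U-2 OS passed in total RNA (0.34 ± 0.076, adjusted p = 1.56e-04) but not in the cytoplasm (0.10 ± 0.083, adjusted p = 0.257), and by limma on RPKM it did not pass in total RNA either (0.15). Per kilobase, RB1 was read at 3.27 ± 0.231 times its relative RBL1 in U-251MG, at 1.63 ± 0.072 times in U-2 OS and at 1.48 ± 0.078 times in A-431.

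CDK6 differed more between lines than CDK4. In total RNA CDK6 was read at 716, 649.5, 640.5 and 616 CPM in U-2 OS. U-251MG held 467, 478, 400.1 and 568 CPM and A-431 held 239.7, 217, 222 and 245 CPM. The A-431 libraries were the lowest, at a level 2.84-fold below U-2 OS (log2 ratio −1.50 ± 0.105, adjusted p = 1.01e-12) and 2.07-fold below U-251MG (−1.05 ± 0.104, adjusted p = 1.29e-09). The smaller difference between U-251MG and U-2 OS passed with all libraries (−0.45 ± 0.103, adjusted p = 2.97e-04). It no longer passed without U-2 OS library 1 (−0.41) or without U-251MG library 5 (−0.43), 6 (−0.45) or 7 (−0.37), nor with the filter on low counts removed (−0.42).

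CDK4 was nearly constant in U-2 OS, at 179.6, 179.6, 179 and 179 CPM in total RNA. It was read at 139, 155, 133 and 141 CPM in A-431 and at 125, 129.9, 114 and 125 CPM in U-251MG. CDK4 was 1.26-fold lower in A-431 (log2 ratio −0.34 ± 0.055, adjusted p = 1.56e-06) and 1.45-fold lower in U-251MG (−0.54 ± 0.055, adjusted p = 1.70e-10) than in U-2 OS. Its difference of 0.20 ± 0.055 between A-431 and U-251MG had an adjusted p of 0.00175, above the threshold, and passed without A-431 library 11, at 0.23, and with RLE scaling or by DESeq2, at 0.22. Per kilobase, CDK6 was read at 0.262 ± 0.025 times CDK4 in A-431, 0.585 ± 0.037 times in U-2 OS and 0.619 ± 0.074 times in U-251MG. CDK4 shares its place with TSPAN31 and MARCHF9, and without strand the reads in the overlaps cannot be assigned to 1 gene.

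CCND1, which encodes the cyclin that activates both kinases, was lowest in U-2 OS, at 399, 397, 387 and 391 CPM in total RNA. It was read at 828, 900, 827 and 844 CPM in A-431 and at 922, 760.5, 780 and 1080 CPM in U-251MG. Both lines lay above U-2 OS and overlapped each other. CCND1 was 2.16-fold higher in A-431 (log2 ratio 1.11 ± 0.079, adjusted p = 1.81e-14) and 2.25-fold higher in U-251MG (1.17 ± 0.079, adjusted p = 5.72e-15) than in U-2 OS. Per kilobase, it was read at 7.68 ± 0.699 times CCND3 in A-431, 7.15 ± 0.991 times in U-251MG and 4.17 ± 0.099 times in U-2 OS.

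Counted over the 7 members that were read in every line, A-431 differed from U-2 OS in total RNA in 7 of 7, with 3 higher and 4 lower, where 29.7% of the 19948 genes tested were higher and 36.2% lower. At least 2-fold differences were found for 5 of the 7, against 39.3% of all genes. U-251MG differed from U-2 OS also in 7 of 7, 3 higher (28.0% of all genes) and 4 lower (34.9%), and by at least 2-fold in 3 (36.1%). Between A-431 and U-251MG, 2 of the 7, RB1 and CDK6, were lower in A-431 (29.3% of all genes), and CDK6 was the 1 member of the 7 past 2-fold (30.7%). By edgeR 0 of the 7 were higher in A-431 (28.3% of all genes), with 1, CDK4, at an unadjusted p of 0.05, and DESeq2 called that 1. No test of the difference between these comparisons was run, and those against U-2 OS share its libraries. The median log2 ratio over all genes was −0.11 in both comparisons against U-2 OS and −0.01 between A-431 and U-251MG, and another scaling by relative log expression turned no direction of these 7 members in total RNA.

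The line differences were measured again in the cytoplasmic libraries. For U-251MG against U-2 OS, the log2 ratio of MDM2 went from −0.99 in total RNA to −1.21 in the cytoplasm, that of CDKN1A from −1.65 to −1.47, that of RB1 from 0.92 to 0.55 and that of CDK6 from −0.45 to −0.89. No direction of a difference that passed in both turned. MDM2 was read there at 186, 183 and 214 CPM in U-2 OS, at 78.2, 80.9, 89.4 and 89.0 CPM in U-251MG and at 100.1, 97.3, 94.2 and 81.4 CPM in A-431. CDKN1A was read at 169.8, 161 and 151 CPM in U-2 OS, at 57.0, 66.6, 52.6 and 56.0 CPM in U-251MG and at 45.9, 42.2, 42.6 and 48.1 CPM in A-431. U-2 OS stayed above the other lines for both genes. For A-431 against U-2 OS, 2 of the 7 were higher (29.7% of all genes) and 4 lower (34.6%), RB1 being the exception. U-251MG against U-2 OS gave 3 higher (27.1%) and 4 lower (34.1%). For A-431 against U-251MG the lower members were CDKN1A (log2 ratio −0.38 ± 0.074, adjusted p = 2.82e-05), RB1 and CDK6 (29.1% of all genes lower, 29.5% higher). By limma on RPKM, CDKN1A (−0.24) and RB1 (−0.32) did not pass in this comparison, nor did RB1 in U-251MG against U-2 OS (0.36). All total libraries ran on 1 flow cell, whereas the cytoplasmic libraries were split over 2, with all of A-431 on the second.

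**Figure D3:**
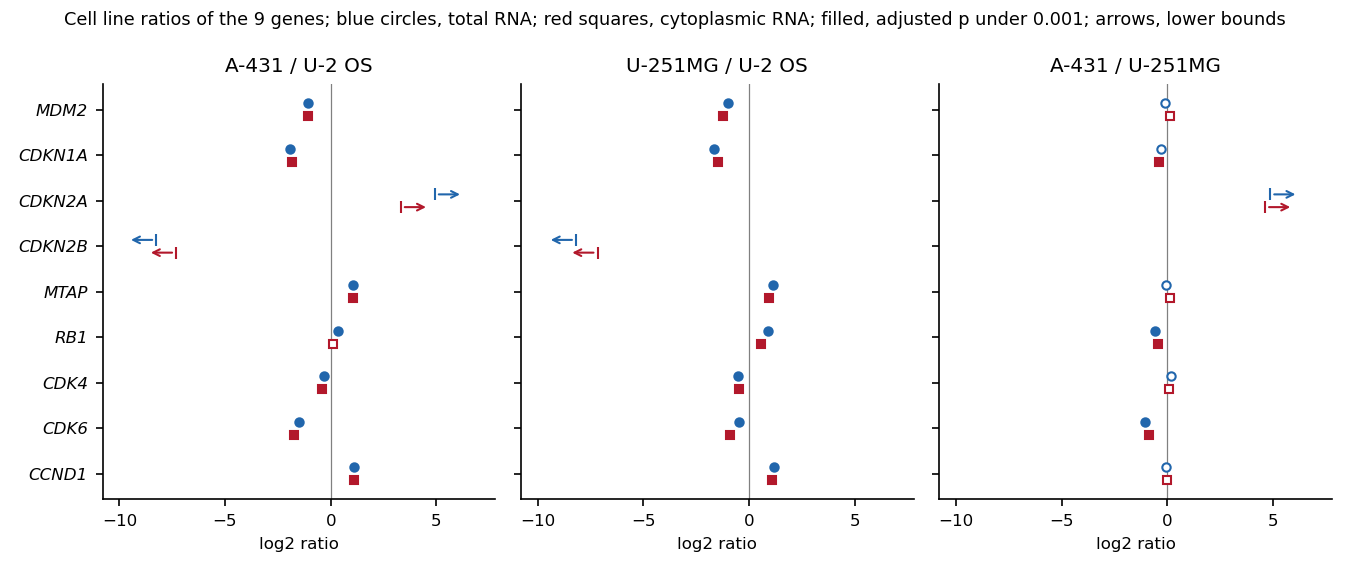
Log2 ratio of each member between cell lines, in total and cytoplasmic RNA, with 1 standard error from the edgeR model. Arrows mark lower bounds on the ratio for genes at 0 or 1 read in a line. Total and cytoplasmic ratios lie close together for CDKN1A in A-431 against U-2 OS (−1.92 and −1.84) and farther apart for CDK6 (−0.45 and −0.89) and RB1 (0.92 and 0.55) in U-251MG against U-2 OS.

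The order of the members per kilobase also differed between lines. In U-2 OS total RNA, CDK4 (96.1 CPM per kb) and CCND1 (92.8) led, followed by CDKN1A (73.0), CDK6 (56.2), MDM2 (27.6), RB1 (21.4), MTAP (10.8) and CDKN2B (2.28), and no neighbours in this order overlapped. In A-431 CCND1 led at 200.5 CPM per kb, ahead of CDK4 (76.1), RB1 (27.0) and MTAP (22.6). CDK6 (19.8) and CDKN1A (19.3) overlapped there, and MDM2 followed at 12.9 and CDKN2A at 0.899. In U-251MG CCND1 (208.9) and CDK4 (66.2) led as well. CDK6 (41.0) and RB1 (40.3) overlapped, as did MTAP (23.8) and CDKN1A (23.4), and MDM2 was lowest of the genes read, at 13.8. These orders hold for the canonical transcript lengths used here, and the deposited RPKM values ordered the members otherwise. By mean RPKM in total RNA, CDKN1A lay below MDM2 in U-251MG (50.45 against 187.7) and also in U-2 OS (163.2 against 442.3).

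Total and cytoplasmic RNA differed little for the members. RB1 was higher in total RNA in each line, by a log2 ratio of 0.26 ± 0.055 in U-2 OS (adjusted p = 3.46e-04, 1.2-fold), 0.60 ± 0.081 in U-251MG (adjusted p = 1.64e-04, 1.52-fold) and 0.51 ± 0.071 in A-431 (adjusted p = 2.66e-05, 1.42-fold). Its cytoplasmic level was 82.7, 80.9 and 91.6 CPM in U-2 OS, 115, 115, 137 and 130.4 CPM in U-251MG and 100.3, 92.7, 95.3 and 77.1 CPM in A-431, below every total library of the same line. CDK6 passed in A-431, where the cytoplasmic libraries held 181, 183, 176 and 142 CPM (0.45 ± 0.071, adjusted p = 8.48e-05, 1.37-fold). Its ratio of 0.63 ± 0.12 in U-251MG did not pass (adjusted p = 0.00141), nor did that of 0.22 ± 0.055 in U-2 OS (adjusted p = 0.00278). Without a library it passed in both, at 0.72 without U-251MG cytoplasmic library 19 and at 0.23 without U-2 OS total library 3. CDK6 also passed in U-251MG by DESeq2 (0.63) and with 1 model over all groups (0.65). In U-2 OS it passed without the filter on low counts (0.21) and with a replicate block (0.18). In A-431 it did not pass with 1 model (0.44) or by limma on RPKM (0.79). No other member passed in the fit per line with all libraries used. With 1 model over all groups MDM2 (0.30) and MTAP (0.38) also passed in U-251MG, and there MTAP also passed without the filter on low counts (0.37) and MDM2 by DESeq2 (0.28).

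Thus 2 of the 7 members read in every line were higher in total RNA in A-431 (10.2% of all genes tested were higher and 9.51% lower). The same held for 1 of the 7 in U-251MG (5.93% and 6.98%) and for 1 in U-2 OS (4.75% and 3.61%). The ratios of all genes varied with GC content, and those of the members are given in the order U-2 OS, U-251MG, A-431. RB1, with 37.1% GC in its canonical transcript, stood at 0.26, 0.60 and 0.51 beside medians of 0.20, 0.38 and 0.30 over genes within 2 percentage points of its GC content. CDK6 stood at 0.22, 0.63 and 0.45 beside 0.15, 0.31 and 0.25. With a GC term added, an alternative chosen after seeing the data, the ratio of RB1 was 0.22 in U-251MG, that of RB1 in U-2 OS was 0.06 and that of CDK6 0.21 in A-431, and these no longer passed. RB1 in U-2 OS also failed to pass without total library 2 (0.25) or 4 (0.26) or cytoplasmic library 14 (0.24) or 15 (0.22).

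CCND1, at 50.3% GC, had ratios of 0.16, 0.22 and 0.19 beside medians of −0.03, −0.07 and −0.04 for genes of like GC content, none of which passed (adjusted p = 0.0128, 0.0917 and 0.0165). The first of these passed with the GC term, at 0.19, where RB1 in U-2 OS no longer did. MDM2 stood at 0.09, 0.28 and 0.07 beside 0.16, 0.32 and 0.26. CDKN1A and CDK4 had ratios below 0 in each line, from −0.05 to −0.25 and from −0.08 to −0.24, but the GC term turned those of CDKN1A to 0.08 to 0.11 and those of MDM2 to −0.03 to −0.18. The nuclear RNAs MALAT1 and NEAT1 summed to more in cytoplasmic than in total libraries, at 663 to 816 against 185 to 339 CPM in A-431, 646 to 886 against 397 to 595 in U-2 OS and 1032 to 1388 against 235 to 643 in U-251MG. Their part in the fraction ratios was not tested. Flow cell and fraction cannot be told apart in A-431.

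**Figure D4:**
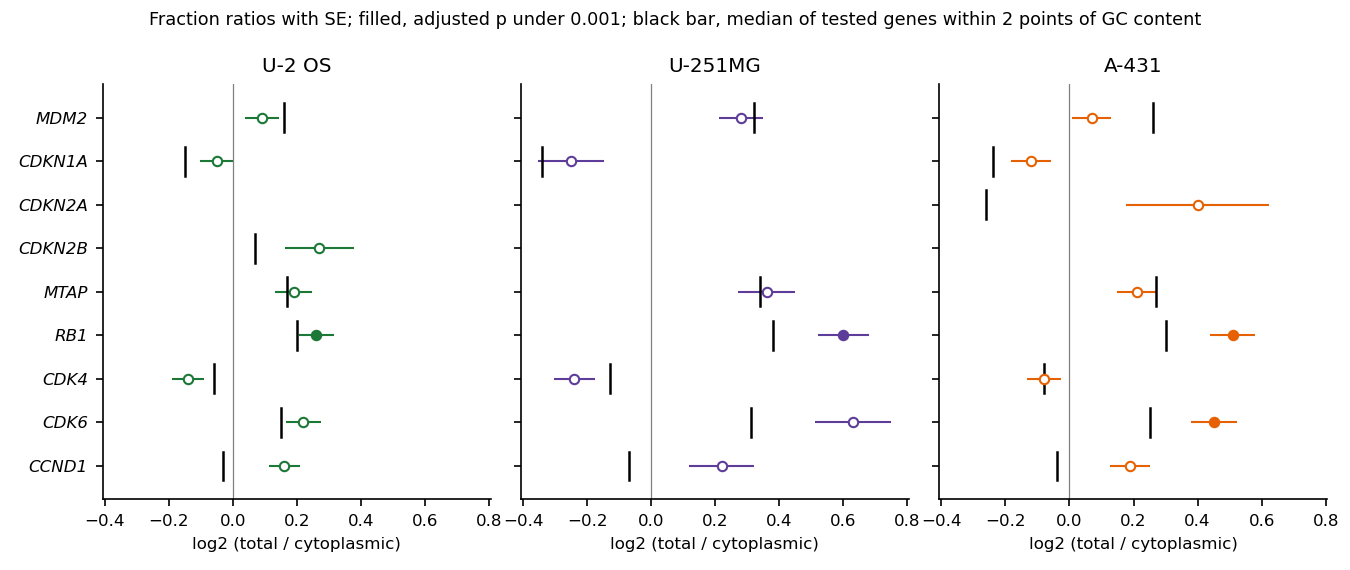
Log2 ratio of total to cytoplasmic RNA for each member in each cell line, with 1 standard error, beside the median of genes of like GC content. RB1 and CDK6 have the highest ratios of the 7 members read in every line in U-251MG and A-431, at 0.60 and 0.63 and at 0.51 and 0.45.

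The fraction ratios were also compared between lines by an interaction term. By edgeR 0 of the 7 members passed at an adjusted p of 0.05 for A-431 against U-2 OS (2.12% of all genes passed), A-431 against U-251MG (0.16%) or U-251MG against U-2 OS (1.67%). At an unadjusted p of 0.05 there were 1, 1 and 3 of the 7, where 14.6%, 7.66% and 19.3% of all genes lay under it. DESeq2 gave 0, 0 and 1 (3.66%, 0.306% and 4.49% of all genes). That member was RB1, whose ratio was higher in U-251MG than in U-2 OS by 0.37 ± 0.112 in edgeR (adjusted p = 0.0711). It passed in edgeR, at 0.37 to 0.42, when U-251MG total library 5 or 7, U-251MG cytoplasmic library 19 or A-431 cytoplasmic library 24 was left out. CDK6 was higher by 0.44 ± 0.151 (adjusted p = 0.117) and passed, at 0.53, without U-251MG total library 7 or cytoplasmic library 19.

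The other genes of these pathways were read from 4 lists, whose counts stand beside those of all genes tested. In total RNA 29.7% of all genes were higher and 36.2% lower for A-431 against U-2 OS. These shares were 28.0% and 34.9% for U-251MG against U-2 OS and 28.3% and 29.3% for A-431 against U-251MG, with median log2 ratios of −0.11, −0.11 and −0.01. Of 35 p53 target genes tested, 8 were higher and 22 lower in A-431 than in U-2 OS total RNA, with a median log2 ratio of −1.12. U-251MG had 6 higher and 21 lower than U-2 OS (median −0.89). Between A-431 and U-251MG the list was even, with 13 higher, 13 lower and a median of −0.26. The cytoplasmic counts were close to these, at 7 higher and 23 lower for A-431 and 6 higher and 23 lower for U-251MG, each against U-2 OS.

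CCNG1, a cyclin that p53 switches on, stood at 159.8 ± 7.40 CPM in A-431, 291 ± 34.3 CPM in U-251MG and 362 ± 18.2 CPM in U-2 OS, and was lower in A-431 than in U-2 OS by a log2 ratio of −1.18 ± 0.079 (adjusted p = 4.72e-15). TIGAR, a regulator of glycolysis, is named as the list member most like MDM2 over these libraries, so its direction was set by that choice. It was lower than in U-2 OS by −1.94 ± 0.092 in A-431 and by −1.66 ± 0.091 in U-251MG. BAX, which promotes cell death and was picked here after its values were seen, was lower by −1.15 ± 0.077 and −0.78 ± 0.076 (adjusted p = 3.68e-15 and 5.27e-11). Of the 4 most highly read targets, CCNG1 alone was highest in U-2 OS, and the others were highest in another line. PLK2, a kinase, was highest in U-251MG at 391 ± 51.3 CPM, against 129.1 ± 3.63 in U-2 OS (log2 ratio 1.60 ± 0.095, adjusted p = 6.22e-15). The death receptor gene TNFRSF10B was likewise highest there, at 170.5 ± 21.9 CPM against 73.8 ± 2.50 (1.21 ± 0.082, adjusted p = 1.12e-14). SFN, an epithelial 14-3-3 protein, was read at 284 ± 44.4 CPM in A-431, 1.41 ± 0.411 CPM in U-251MG and 172 ± 12.7 CPM in U-2 OS.

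The 12 regulators of p53 were mixed, with 4 higher and 5 lower in A-431 than in U-2 OS (median −0.15) and 5 higher and 4 lower in U-251MG (median 0.0). Between A-431 and U-251MG the counts were 4 and 4 (median −0.11). USP7, which removes ubiquitin from p53 and MDM2, was higher in U-2 OS at 211 ± 11.1 CPM against 132 ± 3.76 in A-431 and 136 ± 10.8 in U-251MG. HIPK2, a kinase that activates p53, was highest in U-251MG at 312 ± 26.5 CPM, against 122 ± 8.42 in A-431 and 121 ± 16.8 in U-2 OS. EP300, an acetyltransferase of p53, was highest in U-2 OS at 195 ± 22.4 CPM, against 155 ± 21.1 in A-431 and 106 ± 4.85 in U-251MG.

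Of 24 regulators of the RB pathway, 9 were higher and 11 lower in A-431 than in U-2 OS (median −0.03), 7 higher and 8 lower in U-251MG (median −0.08), and 11 higher and 6 lower in A-431 than in U-251MG (median 0.32). TFDP1, the partner of the E2F factors, was highest in A-431, at 439 ± 8.93 CPM against 201 ± 15.4 in U-2 OS (log2 ratio 1.13 ± 0.066, adjusted p = 9.34e-17). RBL2, a relative of RB1, was highest in A-431 as well, at 132 ± 9.81 CPM against 83.9 ± 7.32 CPM in U-251MG and 74.0 ± 2.59 CPM in U-2 OS. E2F7, a repressor among the E2F factors, was lowest in A-431, at 66.2 ± 1.98 CPM against 128.0 ± 2.04 in U-2 OS. CDK2, the kinase that follows CDK4 and CDK6 in the cell cycle, was read at 84.0 ± 3.33 CPM in U-251MG, against 112 ± 0.846 in A-431 and 117 ± 7.85 in U-2 OS.

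Of this list, 3 genes, picked after their values were seen, were below 1 CPM in 1 or more lines, as CDKN2A and CDKN2B were. CDKN2C, the gene of p18INK4c and a relative of CDKN2A and CDKN2B, stood at 54.2 ± 4.03 CPM in A-431 and 53.8 ± 3.67 CPM in U-2 OS total RNA, while all 4 U-251MG libraries together held 8 reads. U-251MG thus had next to no reads of CDKN2A, CDKN2B or CDKN2C. CDKN2D, a further relative on the list, was read there at 10.4 ± 0.987 CPM, against 11.6 ± 0.866 CPM in A-431 and 7.06 ± 0.646 CPM in U-2 OS. CCND2, a relative of CCND1, stood at 262 ± 5.59 CPM in U-2 OS, where CCND1 was lowest, with 73 reads over the A-431 and 4 over the U-251MG total libraries. CDKN1C, a relative of CDKN1A that encodes p57KIP2, stood at 6.28 ± 1.12 CPM in U-2 OS (653 reads), with 72 reads over the U-251MG and 14 over the A-431 total libraries.

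Of 21 E2F target genes tested, which RB holds back, 10 were higher and 5 lower in A-431 than in U-2 OS (median 0.09 against −0.11 over all genes), 2 higher and 11 lower in U-251MG than in U-2 OS (median −0.34 against −0.11), and 14 higher and 4 lower in A-431 than in U-251MG (median 0.69 against −0.01). PCNA, the sliding clamp of DNA replication, stood at 542 ± 12.5 CPM in A-431, 287 ± 36.9 CPM in U-251MG and 277 ± 8.27 CPM in U-2 OS. RRM1, the large subunit of ribonucleotide reductase, stood at 503 ± 13.2, 247 ± 18.4 and 267 ± 6.45 CPM in the same order. RRM2, the small subunit, went the other way, at 412 ± 18.9, 506 ± 47.6 and 555 ± 28.9 CPM, and MCM7, of the replicative helicase, was highest in U-2 OS at 441 ± 13.2 CPM. The E2F motif TTTNGCGC, searched on both strands in the 250 bases before a start, was found in 5 of 19 of these genes (26.3%) with a window and in 1.84% of all genes with one. Growth rate was not measured.

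**Figure D5:**
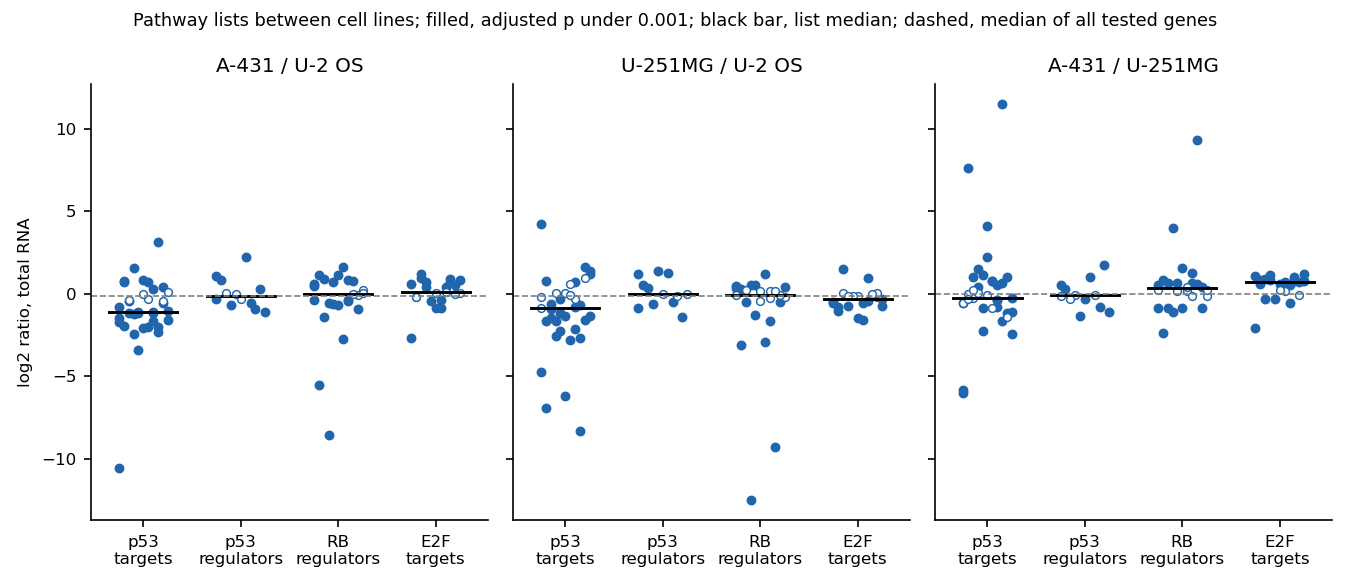
Log2 ratio between cell lines in total RNA for each gene of the 4 pathway lists. Each point is 1 gene, and lines mark the median of the list and of all genes. The p53 target genes lie mostly below 0 against U-2 OS (medians −1.12 and −0.89) and around 0 between A-431 and U-251MG (−0.26).

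The genes most like each member were found by Pearson's r of log2 CPM over the 23 libraries used, with 2 taken for each member. The libraries fall into 3 lines, so that r mostly ranks genes by how their line means compare, and no p is given. MDM2 was most like N4BP2 (r = 0.991) and TIGAR (0.990), and CDKN1A most like FADS2 (0.996) and COL1A1 (0.995). CDKN2A followed IL1RL2 and HHEX (both 0.996), and CDKN2B followed NUDT11 and ADGRL4 (both 0.999). MTAP was most like GLRX3P2 (0.992) and KPNA4 (0.991), RB1 most like SUCO and ZMPSTE24 (both 0.986), and CDK4 most like MCM7 (0.983) and MSRB1 (0.974). CDK6 was most like SLC30A1 and CLSPN (both 0.991) and CCND1 most like DDAH1 (0.987) and TSR1 (0.986). Among the members themselves, CCND1 and MTAP, on different chromosomes, were the most alike (r = 0.981), both being lowest in U-2 OS.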

How the data were processed

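Total and cytoplasmic RNA of U-2 OS, A-431 and U-251MG cells was sequenced, with 4 libraries per group. The authors aligned reads to GRCh37 (hg19) by TopHat 1.1.4, handled alignments by SAMtools 0.1.8 and counted reads per gene of Ensembl 59 by HTSeq 0.4.6, without strand; these deposited counts were the basis of each test. The authors also deposited RPKM values (reads scaled to transcript length and library size), which were used as an alternative with limma on log2(RPKM + 0.1). The labels and the study's methods name different RNA kits and read layouts.

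The members and the 4 pathway lists were chosen with earlier results of these data known. Gene positions and canonical transcripts came from GENCODE 44 mapped to GRCh37. Entries that name no gene were left out of the totals and held 25.89 to 33.58% of the reads. Library 13 (U-2 OS cytoplasmic) was left out, since its read totals were not among those of the study. Counts were tested with edgeR 4.0.16 (R 4.3.3) by its quasi-likelihood F-test, with TMM scaling, filterByExpr and robust fitting, in 1 model over the 6 groups for the cell lines (19948 genes) and in 1 model per line for the fractions. p-values were adjusted over all genes by Benjamini-Hochberg, and genes were called at an adjusted p under 0.001 (0.05 for interactions). The standard error is the log2 ratio over the root of F. The named genes were all 9 members, the 4 most highly read genes of each list and the 2 genes most like each member, except that 1 item is not reported here; others are said to be picked after their values were seen. The scripts were tested on simulated data. Alternatives were DESeq2 1.42.0, limma 3.58.1 on RPKM, RLE scaling, no filter, all libraries, 1 flow cell, a replicate block, other thresholds, a GC term and each library left out in turn. Total counts of 19918911 to 32394170 per library set the precision: 3 reads over a group are 0.0247 to 0.0357 CPM.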

Additional observations from a re-analysis of the deposited data

Results flagged for a closer look

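Of 40 sets of 4 libraries (a member in a group), 4 held a library far from the others. In these its gap to the nearest other, as a share of the whole range, exceeded Dixon's 95% critical value. Chance gives about 1 in 20, but a single read in a group otherwise at 0 exceeds this value by construction. The CDKN2B sets below are of this kind, so the count of 4 cannot be set against that share. MDM2 was highest in U-251MG total library 8, at 113.9 CPM, against 99.2 to 101 CPM in the others; this library was the highest of its group for 5 of 7 members and the lowest for CDKN1A. CDK6 was lowest in A-431 cytoplasmic library 24, at 142.0 CPM, against 176 to 183 CPM; this library was the lowest of its group for 5 of 7 members. The other sets were single reads of CDKN2B, in A-431 cytoplasmic library 22 (0.0327 CPM) and U-251MG cytoplasmic library 18 (0.0364 CPM), in groups otherwise at 0.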

How the results depend on the processing

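Counts are over the 7 members read in every line. In total RNA, each alternative except that noted here left the number called between lines within 1.5 times its value; at an adjusted p of 0.05, 4 members differed between A-431 and U-251MG, against 2. Leaving out each library in turn gave 7 to 7 members for A-431 against U-2 OS, 6 to 7 for U-251MG against U-2 OS and 2 to 3 for A-431 against U-251MG in total RNA, and 6, 7 and 3 in the cytoplasm. With library 13 kept in, each count of members called stayed within 1.5 times its value. RPKM with limma gave 1 for A-431 against U-251MG in the cytoplasm, against 3, without CDKN1A and RB1.

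The fraction calls depended on the setting. For U-2 OS, 1 member became 0 with RPKM, on flow cell A alone or in 1 model over all groups, 2 without the filter, 5 at an adjusted p of 0.05, and 0 to 2 with a library left out. For U-251MG, 1 became 0 with RPKM, on flow cell A alone or with the GC term, 2 without the filter, 3 with DESeq2, 4 in 1 model, 5 at 0.05, and 1 to 2 with a library left out. For A-431, 2 became 0 with RPKM, 1 in 1 model or with the GC term, and 4 at 0.05. Interactions between U-251MG and U-2 OS went from 0 to 1 with DESeq2 or without the filter and 0 to 2 with a library left out. The cause was not tested. Libraries of 1 replicate number in the study had r of their deviations of 0.048, 0.141 and 0.123 between the fractions of U-2 OS. In U-251MG r was 0.12, 0.0542, −0.376 and 0.301, and in A-431 it was 0.0209, 0.0785, 0.213 and 0.0177. Whether these numbers pair the fractions was not settled. With the replicate block, 4 members were called in U-2 OS, against 1, the others being CDK6 (0.18), MTAP (0.21) and CCND1 (0.15). Over all genes the block called 3448 in U-2 OS, 4293 in A-431 and 1582 in U-251MG, against 1509, 3234 and 2083. The GC term left the U-2 OS count at 1 but called CCND1 (0.19) in place of RB1 (0.06).

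Directions turned only for differences that did not pass the test. RPKM with limma gave 0.17, 0.19 and 0.08 for MDM2, CDKN1A and CCND1 in A-431 against U-251MG total RNA, and interactions of 0.39 and 0.05 for MDM2 (A-431 against U-2 OS and U-251MG), 0.51 and 0.08 for CDKN1A (A-431 and U-251MG against U-2 OS) and 0.08 for CCND1 (A-431 against U-251MG). The GC term gave fraction ratios for MDM2 of −0.18 (A-431), −0.03 (U-251MG) and −0.07 (U-2 OS) and, in this order, for CDKN1A of 0.11, 0.08 and 0.09, and −0.06 for MTAP in A-431. With a library left out, A-431 against U-251MG total RNA ran from −0.11 to 0.02 for MTAP and from −0.13 to 0.05 for CCND1. The interactions of CCND1 ran from −0.03 to 0.06 (A-431 against U-2 OS), −0.13 to 0.05 (A-431 against U-251MG) and −0.02 to 0.16 (U-251MG against U-2 OS), and that of MDM2 from −0.11 to 0.01 (A-431 against U-2 OS).

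Over all genes, 3234 differed between fractions in A-431, 2083 genes in U-251MG and 1509 genes in U-2 OS. The GC term left 1132, 110 and 533, and RPKM 158, 5 and 4. On flow cell A alone 52 and 126 were called in U-251MG and U-2 OS, and 1 model gave 4948 and 190. DESeq2 gave 4219 and no filter 3765 in U-251MG, and the block 3448 in U-2 OS. Interactions numbered 422 for A-431 against U-2 OS (189 higher, 233 lower, against 250 and 180 with RLE scaling), 32 against U-251MG and 333 for U-251MG against U-2 OS. DESeq2 gave 730, 61 and 896, RPKM 193 and 110 for the first and last, all deposited libraries 237 and 139, and no filter 53 and 806 for the second and last. With a library left out, the fraction counts ran from 1815 (without total library 9) to 3874 (without total library 10) in A-431, from 533 (without cytoplasmic library 18) to 1837 in U-251MG, and from 459 (without cytoplasmic library 15) to 2612 (without total library 3) in U-2 OS, and the interactions from 157 to 637, 19 to 38 and 35 to 1121.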

Other observations

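CCND1 had neighbours on 11q13 that differed far more between the lines than it did itself. Of 13 tested genes within 1 Mb of CCND1, 10 were higher in A-431 than in U-2 OS total RNA (29.7% of all genes), with a median log2 ratio of 2.91. Against U-251MG 10 were higher in A-431 (28.3% of all genes), with a median of 2.79. These genes were picked after their values were seen. CTTN, which encodes the actin-binding protein cortactin, stood at 1406 ± 31.9 CPM in A-431, 219 ± 13.4 CPM in U-251MG and 155 ± 1.52 CPM in U-2 OS (log2 ratio to U-2 OS 3.18 ± 0.055, adjusted p = 2.75e-31). FADD, an adaptor of death receptors, stood at 243 ± 19.3, 35.2 ± 2.24 and 32.4 ± 2.35 CPM in the same order, and PPFIA1 at 696 ± 18.1, 89.0 ± 8.29 and 97.4 ± 3.44 CPM. The chloride channel gene ANO1 stood at 331 ± 3.98, 8.82 ± 2.05 and 3.49 ± 0.470 CPM. CCND1 itself was 2.16-fold higher in A-431 than in U-2 OS and did not differ by the test from U-251MG. DNA copy number was not measured.

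The neighbours of the other members were more mixed. Of all genes tested, 36.2% were lower and 29.7% higher in A-431 than in U-2 OS total RNA. For U-251MG against U-2 OS these shares were 34.9% and 28.0%. For MDM2, 2 of 16 tested neighbours within 1 Mb were lower in A-431 than in U-2 OS and 6 higher. For CDKN1A, 9 of 27 were lower and 7 higher, close to the shares of all genes. For CDK4, 18 of 35 were lower and 6 higher in A-431, and 20 were lower and 5 higher in U-251MG, with a median of −0.43 in both comparisons. For RB1, 6 of 14 were higher and 1 lower in U-251MG than in U-2 OS, with a median of 0.41, and 1 was higher and 5 lower in A-431 than in U-2 OS.

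The genes named next were picked after their values were seen. Among the p53 regulators, the fraction ratio differed between A-431 and U-2 OS for 3 of 12 (2.12% of all genes). These were MDM4 (interaction −0.60 ± 0.128, adjusted p = 0.00842), ATM (0.44 ± 0.114, adjusted p = 0.0370) and ATR (0.45 ± 0.099, adjusted p = 0.00965). No gene of the other lists passed in that comparison. TFDP2, 1 of 24 genes of the RB pathway list, differed between U-251MG and U-2 OS (0.48 ± 0.102, adjusted p = 0.015, 1.67% of all genes). No gene of the other lists passed there, and none of any list passed between A-431 and U-251MG.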
